A study of Mus musculus with 9 samples.

Results

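The 34 genes described here are a list of cell cycle and proliferation genes, out of 49671 gene identifiers in the count tables. They were chosen by name, with earlier results of these data known. Their levels were read in left ventricle of mice in 9 libraries of polyadenylated RNA, in 4 groups by genotype and treatment. Knockout mice carry the genotype the labels call dSG Knockout Mutant, the usual short name of delta-sarcoglycan (gene Sgcd), a membrane protein of striated muscle whose loss causes cardiomyopathy. They received vehicle (KO vehicle, 2 libraries) or ifetroban (KO ifetroban, 3 libraries), an antagonist of the thromboxane-prostanoid receptor, and wild-type mice received vehicle (WT vehicle, 2 libraries) or ifetroban (WT ifetroban, 2 libraries). Strain, age, sex, dose, length of treatment and the deleted exons were not given in the sources used here. The labels do not tie libraries to animals, and p-values therefore speak only of the scatter among these libraries, some of which may be technical. All 34 genes passed the filter on low counts that left 15261 genes for testing.

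Dividing cells copy their DNA in S phase, with the MCM helicase that unwinds it, the PCNA clamp that holds the polymerases, and enzymes that supply nucleotides. Cyclins with Cdk1, and the Aurora and Polo kinases, then drive mitosis, in which motor proteins build the spindle, the anaphase-promoting complex releases the sister chromatids, and cytokinesis parts the daughter cells. Most cardiomyocytes of the adult mouse heart no longer divide, while fibroblasts, endothelial cells and leukocytes in the same tissue can. In bulk tissue, fewer cells of a type and less RNA per cell cannot be told apart.

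Genes of this kind are known to share promoter elements: E2F sites at S phase genes, and a CCAAT box with a cell cycle homology region (CHR) at genes of mitosis, where the DREAM complex and its activating relatives bind. RefSeq promoters on GRCm38.p6, from 250 bases before to 50 bases after the start, were matched for 30 of the 34 genes. Letters were searched on both strands with overlaps counted: CCAAT for the CCAAT box, TTTGAA or TTCGAA for the CHR, and TTTCCCGC, TTTGGCGC, TTTGCCGC or TTTCGCGC for E2F sites. CCAAT and a CHR stood together in 18 of the 30 promoters (60%), against 8.61% of the 27025 genes in the table and 6.67% of its genes tested here. The share was 7 of 9 for cyclins, mitotic kinases and checkpoint genes, 4 of 5 for genes of anaphase and cytokinesis, and 1 of 8 for genes of replication and nucleotide supply. E2F letters stood in 3 of those 8 promoters and in 4 of all 30, against 4.50% of the genes tested. These matches describe the letters and are neither sites shown to be bound nor causes. The 6 promoters printed here belong to genes that the results below turn on, with capitals for matches to any of the searched letters. Cdk1, Ube2c and Top2a, genes of mitosis, held both CCAAT boxes and a CHR, and Cdk1 also held E2F letters:
Cdk1, chr10:69352863-69353162, minus strand: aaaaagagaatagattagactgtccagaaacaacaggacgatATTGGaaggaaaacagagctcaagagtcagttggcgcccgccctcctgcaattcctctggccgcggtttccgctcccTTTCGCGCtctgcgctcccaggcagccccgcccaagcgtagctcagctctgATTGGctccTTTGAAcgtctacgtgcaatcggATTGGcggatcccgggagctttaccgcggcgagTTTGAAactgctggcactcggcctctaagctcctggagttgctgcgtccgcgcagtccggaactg
Ube2c, chr2:164769679-164769978, plus strand: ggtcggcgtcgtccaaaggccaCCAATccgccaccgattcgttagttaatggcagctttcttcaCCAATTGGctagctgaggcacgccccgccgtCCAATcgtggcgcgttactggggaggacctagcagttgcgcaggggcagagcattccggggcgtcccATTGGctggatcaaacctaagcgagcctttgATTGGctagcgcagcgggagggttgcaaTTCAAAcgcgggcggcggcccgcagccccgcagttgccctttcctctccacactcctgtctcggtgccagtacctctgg
Top2a, chr11:99024140-99024439, minus strand: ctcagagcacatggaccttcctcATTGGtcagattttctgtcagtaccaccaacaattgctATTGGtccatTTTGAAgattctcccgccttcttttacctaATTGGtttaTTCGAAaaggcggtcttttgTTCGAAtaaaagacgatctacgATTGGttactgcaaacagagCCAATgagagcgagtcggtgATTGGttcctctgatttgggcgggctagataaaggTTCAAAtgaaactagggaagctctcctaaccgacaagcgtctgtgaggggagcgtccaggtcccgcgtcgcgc

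The promoters of the MCM helicase genes Mcm6 and Mcm5 held CCAAT boxes and E2F letters but no CHR, and the promoter of Cenpf, whose values departed from those of the other genes, held CCAAT boxes and a CHR:
Mcm6, chr1:128359656-128359955, minus strand: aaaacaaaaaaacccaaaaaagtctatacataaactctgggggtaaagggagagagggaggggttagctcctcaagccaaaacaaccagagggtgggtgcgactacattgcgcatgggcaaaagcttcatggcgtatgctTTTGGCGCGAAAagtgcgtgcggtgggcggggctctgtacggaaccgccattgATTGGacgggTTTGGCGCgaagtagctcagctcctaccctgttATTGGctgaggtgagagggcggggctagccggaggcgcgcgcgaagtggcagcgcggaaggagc
Mcm5, chr8:75109259-75109558, plus strand: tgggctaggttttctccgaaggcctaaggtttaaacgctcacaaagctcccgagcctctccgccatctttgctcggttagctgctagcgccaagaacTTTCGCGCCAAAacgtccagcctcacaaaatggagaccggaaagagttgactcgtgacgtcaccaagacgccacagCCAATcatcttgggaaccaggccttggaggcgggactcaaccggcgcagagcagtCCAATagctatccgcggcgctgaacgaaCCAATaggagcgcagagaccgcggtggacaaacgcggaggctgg
Cenpf, chr1:189688037-189688336, minus strand: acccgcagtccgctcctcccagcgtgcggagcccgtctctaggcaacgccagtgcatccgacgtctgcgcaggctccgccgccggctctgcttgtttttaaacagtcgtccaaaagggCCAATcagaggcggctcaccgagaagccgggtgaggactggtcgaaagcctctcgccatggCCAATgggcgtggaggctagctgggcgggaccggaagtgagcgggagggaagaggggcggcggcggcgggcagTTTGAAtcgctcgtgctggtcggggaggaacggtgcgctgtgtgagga

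Counts in genes were 21299748 to 31394548 per library. Levels are given as CPM, a gene's counts scaled to a common library size after TMM scaling, which compares libraries and not genes. The 10 cardiomyocyte markers summed to 61340 to 78461 CPM and none was at 0. Sgcd itself stood at 11.1 CPM in the library labelled WT vehicle replicate 1, inside the KO range of 7.49 to 18.5 CPM and below the 28.9 to 33.1 CPM of the other WT libraries, so the targeted gene goes against its label. Pttg1, at 1.66 to 2.46 CPM in the KO libraries, stood at 76.7 CPM in that library and at 46.2 to 46.6 CPM in the other WT libraries. KO vehicle replicate 1 stood apart on the first principal component, at 84.4 against -38.2 to 34.2. Relative to short transcripts, long ones were low in both KO vehicle libraries, the library labelled WT vehicle replicate 1 and KO ifetroban replicate 1, and high in the other 5 libraries.

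Transcripts of these genes were scarce. Of 306 gene by library values, 0 were at 0 reads, 21 were under 10 reads and the median was 35 reads. Of those 21 values 11 were in the library labelled WT vehicle replicate 1. As RPKM, counts scaled for library size and exon length, Pcna was highest with a mean of 10.7 over the 9 libraries, followed by Mcm6 at 2.12, Cenpf at 1.87 and Mcm3 at 1.83. The neighbouring levels of these last 3 overlapped from library to library. Bub1, a spindle checkpoint kinase, was lowest at 0.103 on the same scale.

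The genes varied together, also between libraries of the same wild-type group. For 24 of the 34 genes the lowest level was in the library labelled WT vehicle replicate 1, and for 24 the highest was in WT ifetroban replicate 1. Among all tested genes, 13.9% were lowest in the first of these libraries and 8.81% highest in the second. On the log2 scale, the mean deviation of the 34 genes from each gene's mean over the 9 libraries was -0.88 in the library labelled WT vehicle replicate 1 and 0.76 in WT ifetroban replicate 1, against -0.23 to 0.38 in the other 7. The 34 genes were higher without exception in WT ifetroban replicate 1 than in WT ifetroban replicate 2, with a median log2 difference of 0.96. In the library labelled WT vehicle replicate 1, 31 of 34 were lower than in WT vehicle replicate 2, with a median of -0.85. Between KO vehicle replicates 1 and 2, 24 of 34 were lower in replicate 1 (median -0.50). Summed without Cenpf, the genes held 61.1 CPM in the library labelled WT vehicle replicate 1 and 136 CPM in WT ifetroban replicate 1, with 79.5 to 109 CPM in the other 7. Over all tested genes the medians of the within-group differences were -0.01 to -0.00.

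**Figure D1:**
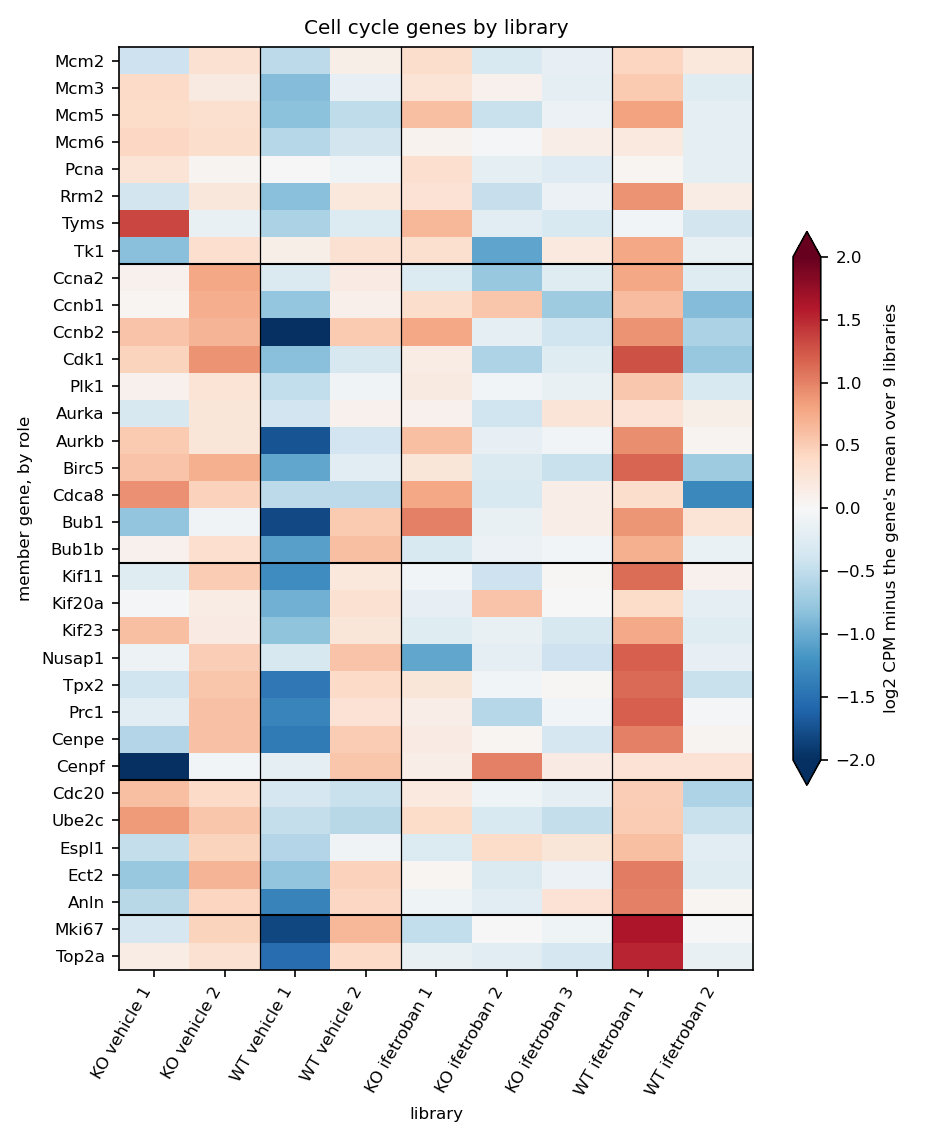
Log2 CPM of each of the 34 genes (rows, grouped by role) minus the gene's mean over the 9 libraries (columns, by group); red is above and blue below the mean, and the colour scale ends at 2 in each direction. The library labelled WT vehicle replicate 1 is blue and WT ifetroban replicate 1 red for most rows, while Cenpf is lowest in KO vehicle replicate 1.

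Over the 561 pairs of the 34 genes, Pearson's r of log2 CPM across the 9 libraries had a median of 0.62, with 93.9% of pairs above 0. All pairs of tested genes had a median of -0.00 with 49.9% above 0. After the group means were removed the median of the 561 pairs was 0.66, so the shared variation was also present within groups. All pairs rest on the same 9 libraries, and the values are a description. The genes that followed the others least were Cenpf, with a mean r of -0.02, and Pcna at 0.21, Tyms at 0.23 and Tk1 at 0.29, the last 3 of these from the replication and nucleotide group. Plk1, the Polo kinase of mitosis, followed them most, at 0.71.

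Markers of red blood cells were ordered the other way at both ends. Summed levels of the erythroid markers, among them near-identical hemoglobin gene copies whose single counts are uncertain, peaked at 476 CPM in the library labelled WT vehicle replicate 1 and were lowest, 43.0 CPM, in WT ifetroban replicate 1. The other libraries held 65.3 to 380 CPM, with KO vehicle replicate 1 at 380 CPM. Of the 7 markers 6 were tested and none was at 0 in every library. Endothelial markers summed to 1460 CPM in the library labelled WT vehicle replicate 1 and 1554 CPM in WT ifetroban replicate 1, within 1393 to 1629 CPM of all libraries. Markers of macrophages and monocytes summed to 597 to 820 CPM in KO libraries and 281 to 404 CPM in WT libraries, without overlap, while the mean deviations of the 34 genes overlapped between KO and WT libraries. Fibroblast markers, 10 of 10 tested, summed to 2590 to 3646 CPM in KO libraries and 2211 to 2538 CPM in WT libraries. Markers of activated fibroblasts, 8 of 8 tested, summed to 609 and 667 CPM in KO vehicle against 175 and 203 CPM in WT vehicle, and to 352, 341 and 388 CPM in KO ifetroban against 217 and 192 CPM in WT ifetroban. They were lowest in the library labelled WT vehicle replicate 1, where their mean log2 deviation was -1.27. Their median log2 fold change had the sign of that of the 34 genes for KO vehicle against WT vehicle (2.77) and KO ifetroban against KO vehicle (-0.96, with 0 of 8 positive). It also did for WT ifetroban against WT vehicle (0.46) and the interaction (-1.60). It had the other sign for KO ifetroban against WT ifetroban (1.17) and for KO against WT averaged over both treatments (1.97, against -0.03). The fibroblast, macrophage and monocyte, T and NK cell, and mast cell lists had the same signs as activated fibroblasts in each of these contrasts. For KO vehicle against WT vehicle their medians were 0.46, 0.92, 1.35 and 0.69 in that order. For macrophages and monocytes the median was near 0 for WT ifetroban against WT vehicle (0.038) and the interaction (-0.0056). The erythroid, neutrophil, B and plasma cell, and cardiomyocyte lists had the other sign in both of these contrasts. Their interaction medians were 1.53, 1.63, 1.06 and 0.14 in that order. For KO vehicle against WT vehicle they were -0.57, 1.37, -0.27 and -0.11. Pericyte and smooth muscle markers summed to 1156 to 1676 CPM, mast cell markers to 7.55 to 12.03 CPM, B and plasma cell markers (6 of 7 tested) to 3.37 to 5.92 CPM and neutrophil markers (3 of 8 tested) to 0.990 to 14.8 CPM over the 9 libraries. T and NK cell markers, of which 2 of 9 were tested, summed to 0.770 to 2.502 CPM. The part of any of these cells, or of erythroid RNA, in the levels of the 34 genes was not tested.

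**Figure D2:**
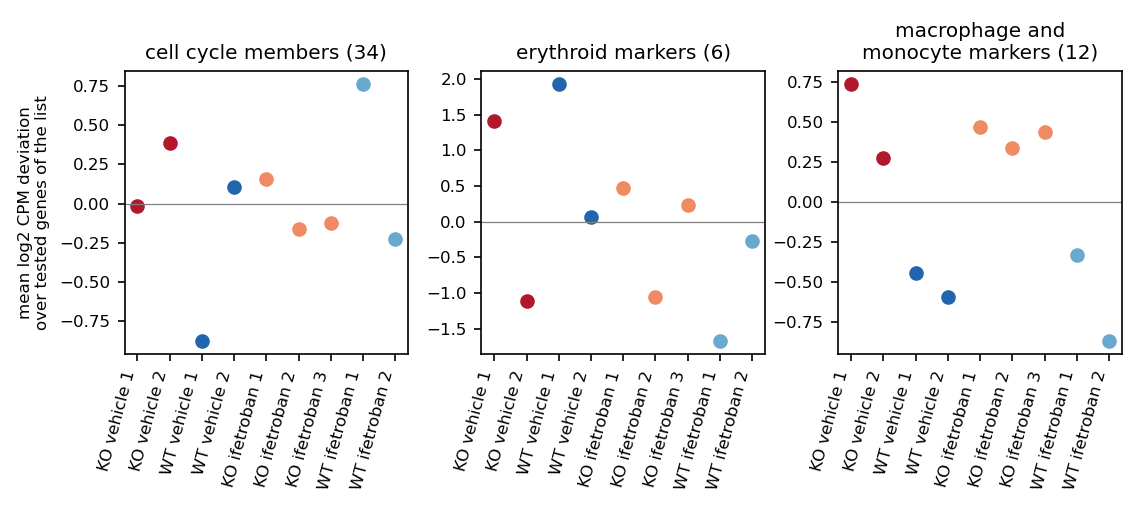
Mean log2 CPM deviation from each gene's mean over the 9 libraries (y axis), for the 34 cell cycle genes, the 6 tested erythroid markers and the 12 macrophage and monocyte markers, by library (x axis). Each point is 1 library; the library labelled WT vehicle replicate 1 is lowest in the first panel at -0.88 and highest in the second at 1.93.

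Mcm6, of the replication group, had the smallest p of the 34 genes for KO vehicle against WT vehicle, in the averaged contrast and in the interaction. This gene, which encodes a subunit of the MCM helicase (ENSMUSG00000026355, chromosome 1, 128331590 to 128359664 on GRCm38), stood at 13.0 and 12.3 CPM in KO vehicle against 6.47 and 7.46 CPM in WT vehicle, and 10.2, 9.51 and 10.6 CPM in KO ifetroban against 11.1 and 8.44 CPM in WT ifetroban. Both KO vehicle libraries were above all others and both WT vehicle libraries below all others, and KO ifetroban lay within the range of WT ifetroban. Mcm5, another helicase subunit, stood at 5.26 and 5.12 CPM in KO vehicle against 2.26 and 2.82 CPM in WT vehicle, and 6.22, 2.98 and 3.76 CPM in KO ifetroban against 7.13 and 3.53 CPM in WT ifetroban. Its WT vehicle libraries were the lowest and the other groups overlapped one another. Mcm3 had 8.65 and 7.50 CPM in KO vehicle against 3.59 and 5.87 CPM in WT vehicle, and 8.04, 7.02 and 5.86 CPM in KO ifetroban against 9.55 and 5.59 CPM in WT ifetroban, so that KO vehicle lay above WT vehicle. Tyms, thymidylate synthase, had 5.82 and 2.03 CPM in KO vehicle against 1.44 and 1.85 CPM in WT vehicle, and 3.65, 1.93 and 1.82 CPM in KO ifetroban against 2.19 and 1.74 CPM in WT ifetroban. KO vehicle replicate 1 and KO ifetroban replicate 1 held most Tyms, and the other 7 libraries lay between 1.44 and 2.19 CPM. Among the other members of the group, the clamp gene Pcna ranged from 21.4 to 32.1 CPM over the 9 libraries, the helicase subunit gene Mcm2 from 5.13 to 10.01 CPM, Rrm2 (ribonucleotide reductase) from 1.03 to 3.61 CPM and Tk1 (thymidine kinase) from 0.706 to 2.72 CPM.

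The cyclins, mitotic kinases and checkpoint genes lay at about 1 CPM. Ccna2, the cyclin of S phase and early mitosis (ENSMUSG00000027715, chromosome 3, 36564865 to 36572150), had 1.81 and 2.98 CPM in KO vehicle against 1.39 and 1.93 CPM in WT vehicle, and 1.40, 0.982 and 1.44 CPM in KO ifetroban against 2.99 and 1.43 CPM in WT ifetroban. The 3 KO ifetroban libraries were below both KO vehicle libraries, and KO vehicle and WT vehicle overlapped. Cdk1, the main kinase of mitosis, had 1.12 and 1.55 CPM in KO vehicle against 0.411 and 0.618 CPM in WT vehicle, and 0.888, 0.491 and 0.659 CPM in KO ifetroban against 2.03 and 0.436 CPM in WT ifetroban. KO vehicle lay above WT vehicle and above KO ifetroban, while WT ifetroban replicate 1 was the highest of all and replicate 2 lay with the low WT vehicle libraries. Aurkb, the kinase of the chromosomal passenger complex, had 0.791 and 0.635 CPM in KO vehicle against 0.103 and 0.386 CPM in WT vehicle, and 0.841, 0.460 and 0.504 CPM in KO ifetroban against 1.07 and 0.555 CPM in WT ifetroban. The WT vehicle libraries were the lowest, the first of them from 2 reads. Cdca8 (borealin), a further subunit of that complex, had 1.40 and 0.993 CPM in KO vehicle against 0.462 and 0.464 CPM in WT vehicle, and 1.26, 0.552 and 0.776 CPM in KO ifetroban against 0.920 and 0.238 CPM in WT ifetroban, with KO vehicle above WT vehicle. Ccnb1, a cyclin of mitosis, had 0.512 and 0.874 CPM in KO vehicle against 0.257 and 0.541 CPM in WT vehicle, and 0.654, 0.767 and 0.271 CPM in KO ifetroban against 0.805 and 0.238 CPM in WT ifetroban, and no pair of groups was separate. The other 6 members, Ccnb2, Plk1, Aurka, Birc5 (survivin), Bub1 and Bub1b (spindle checkpoint kinases), ranged from 0.0513 CPM, which was 1 read, to 2.34 CPM.

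Cenpf, which encodes a large kinetochore protein, departed from the other spindle and kinetochore genes. It had 5.40 and 24.3 CPM in KO vehicle against 22.4 and 37.2 CPM in WT vehicle, and 28.0, 51.3 and 28.6 CPM in KO ifetroban against 31.2 and 31.0 CPM in WT ifetroban. KO vehicle replicate 1 was far below every other library and KO ifetroban replicate 2 above them, and both KO vehicle libraries were below the 3 KO ifetroban libraries. Its exons span 15433 bases, the longest of the 34 genes. Nusap1, which binds spindle microtubules, had 0.791 and 1.23 CPM in KO vehicle against 0.667 and 1.31 CPM in WT vehicle, and 0.374, 0.736 and 0.621 CPM in KO ifetroban against 2.07 and 0.753 CPM in WT ifetroban. The 3 KO ifetroban libraries were below both WT ifetroban libraries, by a narrow margin from WT ifetroban replicate 2. Kif20a, a kinesin of the central spindle, had 1.63 and 1.87 CPM in KO vehicle against 0.821 and 2.09 CPM in WT vehicle, and 1.496, 2.55 and 1.67 CPM in KO ifetroban against 2.19 and 1.47 CPM in WT ifetroban, and its groups overlapped. The kinesins Kif11 and Kif23 and the spindle proteins Tpx2, Prc1 and Cenpe were between 0.308 and 3.61 CPM, each lowest in the library labelled WT vehicle replicate 1 and highest in WT ifetroban replicate 1.

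Among genes of anaphase and cytokinesis, Ube2c, the ubiquitin-conjugating enzyme of the anaphase-promoting complex (ENSMUSG00000001403, chromosome 2, 164769898 to 164778822), had 1.67 and 1.35 CPM in KO vehicle against 0.616 and 0.580 CPM in WT vehicle, and 1.17, 0.706 and 0.621 CPM in KO ifetroban against 1.30 and 0.634 CPM in WT ifetroban. Both KO vehicle libraries were above all others, and KO ifetroban overlapped WT ifetroban. Cdc20, an activator of the same complex, had 2.33 and 1.99 CPM in KO vehicle against 1.18 and 1.08 CPM in WT vehicle, and 1.73, 1.41 and 1.32 CPM in KO ifetroban against 2.15 and 0.951 CPM in WT ifetroban, with KO vehicle above WT vehicle and above KO ifetroban. Ect2, a gene needed for cytokinesis, had 0.419 and 1.27 CPM in KO vehicle against 0.411 and 1.08 CPM in WT vehicle, and 0.795, 0.614 and 0.698 CPM in KO ifetroban against 1.65 and 0.634 CPM in WT ifetroban, and its groups overlapped. Espl1 (separase, the protease that opens the cohesin ring) and the cytokinesis gene Anln ranged from 0.565 to 3.18 CPM.

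Mki67, the usual marker of proliferating cells (ENSMUSG00000031004, chromosome 7, 135689784 to 135716361), had 2.88 and 5.003 CPM in KO vehicle against 0.975 and 5.83 CPM in WT vehicle, and 2.57, 3.62 and 3.45 CPM in KO ifetroban against 11.3 and 3.68 CPM in WT ifetroban. Top2a, the topoisomerase that untangles sister chromatids, had 3.12 and 3.49 CPM in KO vehicle against 0.924 and 3.67 CPM in WT vehicle, and 2.52, 2.39 and 2.21 CPM in KO ifetroban against 8.25 and 2.54 CPM in WT ifetroban. In both genes WT ifetroban replicate 1 was far above every other library and the library labelled WT vehicle replicate 1 was the lowest. The WT vehicle libraries lay on either side of all KO libraries, and both WT ifetroban libraries were above the 3 KO ifetroban libraries, replicate 2 by a small margin.

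**Figure D3:**
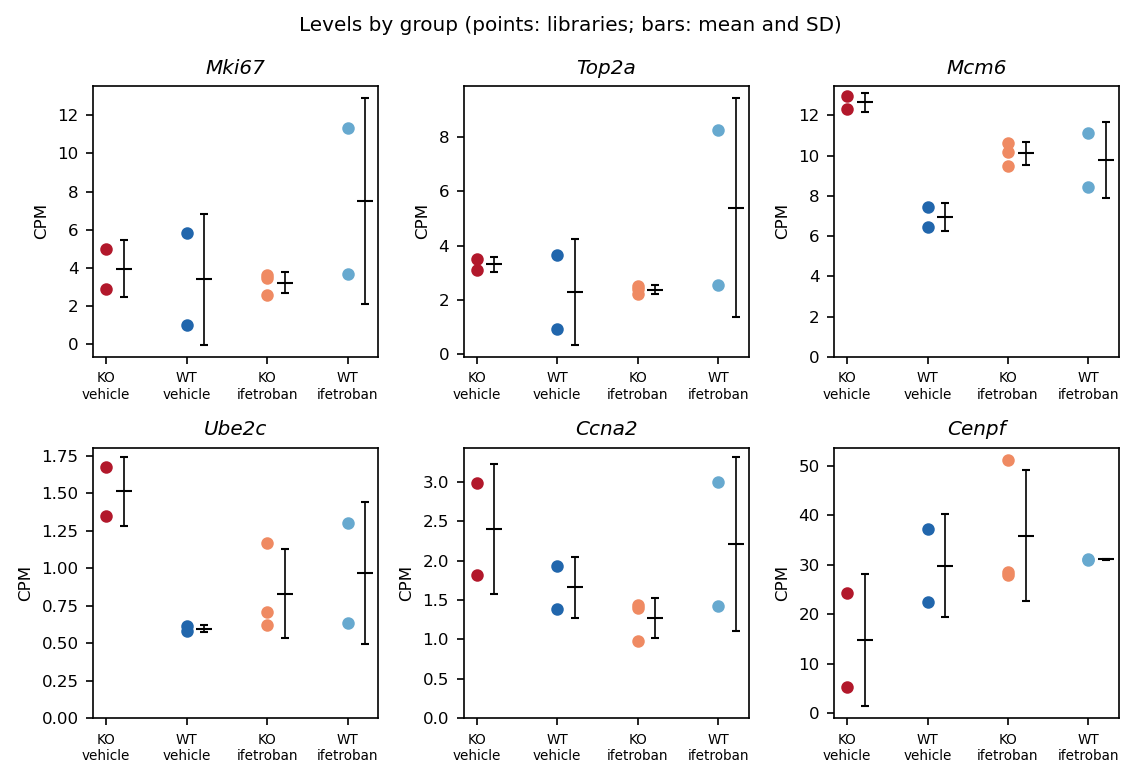
CPM of 6 genes by group; each point is 1 library, and the bar beside it gives the group mean and SD (n = 2, or 3 in KO ifetroban). Mki67 and Top2a spread most within the WT groups, Mcm6 and Ube2c are highest in KO vehicle, and 1 KO vehicle library holds 5.40 CPM of Cenpf.

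Whether loss of delta-sarcoglycan changed these genes without drug was read from KO vehicle against WT vehicle. Most of the genes were higher in KO vehicle, but none was called over all genes (edgeR quasi-likelihood F test, two-sided, Benjamini-Hochberg adjusted p under 0.05; 0 of 34, against 0.0524% of all tested genes). Of the 34 log2 fold changes 31 were positive, with Tk1, Bub1 and Cenpf as the exceptions and a median of 0.50, against 48.5% positive and a median of -0.01 over all tested genes. At an unadjusted p under 0.05 there were 5 higher (Mcm3, Mcm5, Mcm6, Tyms and Ube2c) and 0 lower, where 8.26% of all tested genes were higher and 4.25% lower. CPM values did not overlap for 13 of 34 genes, all higher in KO vehicle (38.2%), where 16.8% of all tested genes were higher and 18.2% lower without overlap. Mcm6 had the smallest p, with a log2 fold change of 0.86 ± 0.205 (SE, edgeR adjusted p = 0.222), followed by Ube2c at 1.33 ± 0.499 (edgeR adjusted p = 0.347) and Mcm5 at 1.02 ± 0.421 (edgeR adjusted p = 0.375). DESeq2 called 1 of the 34 (2.94%, against 2.44% of all genes it tested), Mcm6 (0.86, adjusted p = 0.0387). Without the filter on low counts edgeR called Cenpf (-1.01, adjusted p = 0.00154), where 4.39% of all genes were called. By role, values without overlap were found for 5 of 8 replication genes, 6 of 11 cyclin, kinase and checkpoint genes, 0 of 8 spindle genes and 2 of 5 anaphase and cytokinesis genes.

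The size of the shift depended on single libraries. The median log2 fold change of the 34 genes was 0.02 once the library labelled WT vehicle replicate 1 was left out. Leaving out WT vehicle replicate 2 gave 1.28, and leaving out KO vehicle replicate 2 gave 0.12. Mcm6, Ube2c and Mcm5 had been picked by the smallest p of this contrast, which favours genes with little scatter. Their log2 fold changes were 0.74 to 0.95, 1.17 to 1.47 and 0.85 to 1.19 with each library left out in turn. That is not separate support for these genes. Without KO vehicle replicate 2, KO vehicle is 1 library that is assumed to vary like the other groups, and edgeR called 10.9% of all genes. Of the 34 it called 3 (8.82%): Mcm6 at 0.89, Tyms at 1.80 and Cenpf, which fell by 2.48, with edgeR adjusted p of 0.0444, 0.0355 and 0.0146.

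Under ifetroban the signs turned. In KO ifetroban against WT ifetroban 27 of the 34 log2 fold changes were negative and the median was -0.40, against 51.8% positive and a median of 0.01 over all tested genes. None was called in edgeR (0 of 34, against 0.0131% of all tested genes) or in DESeq2. Nusap1 alone had an unadjusted p under 0.05, with a log2 fold change of -1.26 ± 0.53 (SE, edgeR adjusted p = 0.979), where 3.85% of all tested genes were higher and 0.852% lower at that threshold. The next smallest p-values were those of Top2a at -1.18 ± 0.546 and Ccna2 at -0.80 ± 0.401, both with an edgeR adjusted p of 0.979. CPM values did not overlap for 4 genes (Kif11, Nusap1, Mki67 and Top2a), all lower in KO ifetroban (11.8%, where 12.9% of all tested genes were lower and 16.1% higher without overlap). Leaving out WT ifetroban replicate 2 gave a median of -0.84, KO ifetroban replicate 1 one of -0.60 and KO ifetroban replicate 2 one of -0.25. Without WT ifetroban replicate 1 it was 0.16, and Top2a was at -0.09 and Nusap1 at -0.36. Without the filter on low counts, edgeR called Mki67 (-1.22, adjusted p = 0.00617) and Top2a (-1.19, adjusted p = 0.0242), 5.88% of the 34 where 1.57% of all genes were called.

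Within the knockout, most of the genes were slightly lower with ifetroban. Between KO ifetroban and KO vehicle 28 of 34 log2 fold changes were negative, with a median of -0.29, against 47.6% positive and a median of -0.02 over all tested genes. The exceptions were Tk1, Aurka, Bub1, Kif20a, Cenpf and Espl1. None was called in edgeR (0 of 34, and 0% of all tested genes) or in DESeq2, and 1 gene had an unadjusted p under 0.05 in each direction, where 2.59% of all tested genes were higher and 2.42% lower. These were Cenpf at 1.27 ± 0.534 (SE, edgeR adjusted p = 0.688) and Ccna2 at -0.92 ± 0.4 (the same adjusted p), with Ube2c next at -0.87 ± 0.431. CPM values did not overlap for 10 genes that were lower in KO ifetroban (29.4%) and for 1, Cenpf, that was higher, where 7.58% and 8.38% of all tested genes did so. The 10 were Mcm6, Ccna2, Cdk1, Birc5, Bub1b, Kif23, Nusap1, Cdc20, Ube2c and Top2a. When each library was left out in turn the median stayed negative, at -0.43 when KO vehicle replicate 1 was left out and -0.16 when KO vehicle replicate 2 was, with the others in between. The difference of Cenpf rested on KO vehicle replicate 1: it was 0.56 when that library was left out, and 2.75 when KO vehicle replicate 2 was, which edgeR called (adjusted p = 0.0289) with 2.81% of all genes, the spread then coming from the other groups. Without the filter on low counts edgeR also called Cenpf (1.30, adjusted p = 3.27e-06), with 1.57% of all genes.

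In the wild type, ifetroban and vehicle differed the other way. Between WT ifetroban and WT vehicle 33 of 34 log2 fold changes were positive, all but that of Pcna, with a median of 0.58, against 47.2% positive and a median of -0.02 over all tested genes. None was called in edgeR (0 of 34, and 0% of all tested genes) or in DESeq2. At an unadjusted p under 0.05 there were 3 higher, where 0.315% of all tested genes were higher and 0.944% lower: Mcm5 at 1.06 ± 0.42, Aurkb at 1.65 ± 0.658 and Mcm6 at 0.49 ± 0.204 (SE, edgeR adjusted p = 0.999 for each). CPM values did not overlap for 6 genes (Mcm2, Mcm5, Mcm6, Aurka, Aurkb and Ube2c), all higher in WT ifetroban (17.6%, where 14.9% of all tested genes were higher and 16.5% lower without overlap). Both stand-out libraries enter this comparison, from opposite ends. Without WT ifetroban replicate 1 the median was 0.07, and leaving out the library labelled WT vehicle replicate 1 gave 0.20. Leaving out WT ifetroban replicate 2 gave 1.03, and WT vehicle replicate 2 gave 1.21. With both stand-out libraries left out together the median was -0.36.

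Averaged over both treatments, the log2 fold changes of KO against WT ran both ways. Of the 34 genes 16 had positive and 18 negative log2 fold changes, with a median of -0.03, against 49.5% positive and a median of -0.00 over all tested genes. None was called in edgeR (0 of 34, against 0.537% of all tested genes) or in DESeq2. Mcm6 alone had an unadjusted p under 0.05, at 0.45 ± 0.138 (SE, edgeR adjusted p = 0.168), where 10.6% of all tested genes were higher and 5.94% lower. Tyms was at 0.78 ± 0.355 and Cdca8 at 0.95 ± 0.438. Values of all 5 KO libraries overlapped those of the 4 WT libraries in each of the 34 genes, where 5.03% of all tested genes were higher and 2.28% lower without overlap. Mki67 was at -0.51 ± 0.476 and Top2a at -0.34 ± 0.415. Without WT vehicle replicate 2 their signs turned, to 0.39 for Mki67 and 0.31 for Top2a, and without WT ifetroban replicate 1 that of Top2a was 0.20. The median of the 34 genes was -0.21 when the library labelled WT vehicle replicate 1 was left out and 0.39 when WT vehicle replicate 2 was, the ends of its range. Without KO vehicle replicate 2 edgeR called Cenpf at -1.13 (adjusted p = 0.029) and Tyms at 1.06 (adjusted p = 0.0434), 5.88% of the 34 where 13.1% of all genes were called. Among the libraries with long transcripts low (3 KO and the 1 labelled WT vehicle replicate 1), 32 of 34 genes were higher in KO, with a median log2 difference of 1.14. Among those with long transcripts high (2 KO and 3 WT), 6 were higher and the median was -0.45. The sign differed between these classes, but the classes also differ in treatment and in the stand-out libraries. The first holds both KO vehicle libraries and only 1 WT library, the one labelled WT vehicle replicate 1. The second holds no KO vehicle library and includes WT ifetroban replicate 1. Genotype, drug, transcript length and single libraries cannot be told apart here.

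Whether the effect of ifetroban differed between genotypes was read from the interaction, the drug difference in KO minus that in WT. Its log2 value was negative for 32 of 34 genes, with a median of -0.90, against 53.7% positive and a median of 0.03 over all tested genes. None was called in edgeR (0 of 34, and 0% of all tested genes) or in DESeq2. At an unadjusted p under 0.05 there were 4, all negative, where 0.642% of all tested genes were negative and 0.74% positive. They were Mcm6 at -0.81 ± 0.274, Cdk1 at -2.23 ± 0.899, Mcm5 at -1.34 ± 0.558 and Ube2c at -1.57 ± 0.665 (SE, edgeR adjusted p = 1 for each). The positive values were those of Bub1 and Cenpf. Leaving out WT ifetroban replicate 1 gave a median of -0.37, and the library labelled WT vehicle replicate 1 gave -0.51. Their partners gave -1.38 (WT ifetroban replicate 2) and -1.56 (WT vehicle replicate 2). With both stand-out libraries left out together it was 0.04. By role, 8 of 8 replication, 10 of 11 cyclin, kinase and checkpoint, 7 of 8 spindle and 5 of 5 anaphase genes were negative. The 4 comparisons of group pairs share libraries with one another and with the interaction, so their medians are not independent. Standard errors of single genes were 0.205 to 0.902 for KO vehicle against WT vehicle.

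**Figure D4:**
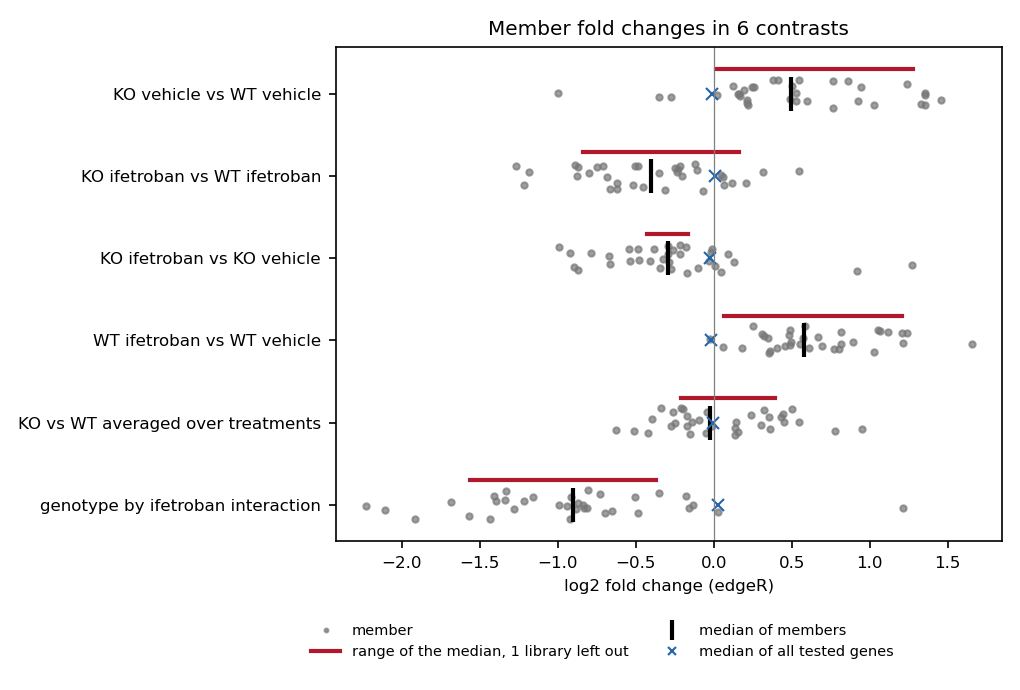
Log2 fold changes from edgeR (x axis) of the 34 genes in 6 contrasts (y axis): points are genes, black ticks their medians, blue crosses the medians of all tested genes, and red lines the range of the median when 1 library is left out. The red line reaches 0.02 for KO vehicle against WT vehicle, crosses 0 for KO ifetroban against WT ifetroban, and stays between -0.43 and -0.16 for KO ifetroban against KO vehicle.

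Other cell cycle genes were listed by function, 132 in all, of which 126 were tested. Pttg1 (securin, the inhibitor of separase) was the only one called in any contrast by edgeR with every library and the filter on low counts. It had 1.72 and 2.46 CPM in KO vehicle against 76.7 and 46.5 CPM in WT vehicle. Its averaged log2 fold change was -4.76 ± 0.198 (SE, edgeR adjusted p = 9.43e-06), and that of its partner Espl1 was 0.14 ± 0.323 (edgeR adjusted p = 0.85). Whether loss of delta-sarcoglycan or another difference between the KO and WT mice lowered Pttg1 was not tested. The list of 37 tested genes of spindle, kinetochore and chromosome structure had these values: 30 were positive for KO vehicle against WT vehicle (median 0.44), 3 for KO ifetroban against WT ifetroban (median -0.52), 6 for KO ifetroban against KO vehicle (median -0.29) and 33 for WT ifetroban against WT vehicle (median 0.76). In the averaged contrast none of them was called, and Spc24 was at -0.71 ± 0.29 and Ncapd2, a condensin subunit, at -0.33 ± 0.147. Of 29 tested replication genes 16, 8, 18 and 22 were positive in these 4 contrasts in the same order, and the polymerase genes Pole and Pola1 were at -0.76 ± 0.279 and -0.54 ± 0.216 in the averaged contrast.

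Of 14 tested G1 cyclins, kinases and phosphatases 7 were positive for KO vehicle against WT vehicle (median 0.02), and Cdk6 and Cdk4, partners of the D cyclins, were at 0.32 ± 0.14 and 0.37 ± 0.164 in the averaged contrast. Of 20 tested pocket protein, E2F, MuvB and FoxM1 genes 9 were positive for KO vehicle against WT vehicle (median -0.02), with Tfdp2 at -0.49 ± 0.164 and E2f4 at 0.53 ± 0.231 on average. Of 18 tested genes of securin and the anaphase-promoting complex 9 were positive (median -0.00), with Anapc7 at 0.23 ± 0.115 on average. Among 8 inhibitors of cyclin-dependent kinases 5 were positive (median 0.14). Cdkn1a (p21), an inhibitor induced by p53, had 162 and 19.2 CPM in KO vehicle against 29.1 and 19.3 CPM in WT vehicle, and 56.1, 54.8 and 34.3 CPM in KO ifetroban against 12.7 and 20.6 CPM in WT ifetroban. All 3 KO ifetroban libraries were above both WT ifetroban libraries, whereas KO vehicle replicate 1 was the highest and KO vehicle replicate 2 was below both WT vehicle libraries. Its averaged log2 fold change was 1.72 ± 0.508 (SE, edgeR adjusted p = 0.156). Leaving out KO vehicle replicate 1 gave 0.61, and KO vehicle replicate 2 gave 2.14. Either fit leaves 1 KO vehicle library that is assumed to vary like the other groups. Cdkn2b (p15) had 1.40 and 0.794 CPM in KO vehicle against 0.411 and 0.270 CPM in WT vehicle, and 0.608, 0.890 and 0.465 CPM in KO ifetroban against 0.153 and 0.475 CPM in WT ifetroban, with an averaged log2 fold change of 1.37 ± 0.433 (edgeR adjusted p = 0.179).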

How the data were processed

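Libraries were sequenced RNA of mouse left ventricle. The authors deposited read counts per gene for each library, with columns for counts without regard to strand and for each strand; the submitters' processing notes name STAR 2.5.2b, HTSeq and GRCm38. Reverse-strand counts were 14.5 times forward-strand counts and were used. Rows naming no gene held 26.6% to 31.9% of reads and were left out. Of 49671 identifiers 49412 matched GENCODE M21. Genes passing filterByExpr (15261) were fitted in edgeR 4.0.16 (R 4.3.3, limma 3.58.1) with TMM scaling, 4 group coefficients and all 9 libraries, by the quasi-likelihood F test with Benjamini-Hochberg adjustment over all tested genes and a threshold of 0.05. The fit was tested on simulated data. Alternatives were DESeq2 1.42.0, other size factors, no filter, counts without regard to strand, the compared groups alone, a replicate block, a length term and libraries left out. Log2 CPM used a prior count of 2. Standard errors (SE) given with edgeR fold changes were back-calculated, as the absolute log2 fold change over the square root of F.

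Genes with values by library were those called in any contrast, the 3 smallest averaged-genotype p-values of each role group and the 3 smallest of each contrast, with 2 from each list of other cell cycle genes. The members and lists were chosen with earlier results of these data known.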

Additional observations from a re-analysis of the deposited data

Results flagged for a closer look

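In Mcm6 and Ube2c the drug difference ran in opposite directions in the 2 genotypes: every KO ifetroban library was below both KO vehicle libraries, and every WT ifetroban library was above both WT vehicle libraries. For Ube2c the separation in the wild type was narrow, at 0.634 CPM in WT ifetroban replicate 2 against 0.616 CPM in the library labelled WT vehicle replicate 1. Both genes were picked for this separation after all the listed cell cycle genes had been looked through. Of all tested genes, 7.58% were lower without overlap in KO ifetroban than in KO vehicle. In WT ifetroban 14.9% were higher without overlap than in WT vehicle. How many of all tested genes separate in both ways at once was not counted, so the flag has no baseline. The interaction on the log2 scale was -0.81 for Mcm6 (-0.60 without WT ifetroban replicate 1) and -1.57 for Ube2c. Neither was called in edgeR's quasi-likelihood test (Benjamini-Hochberg adjusted p = 1.0 for both).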

How the results depend on the processing

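The count of the 34 genes called was 0 in every contrast. It became 1 for KO vehicle against WT vehicle with DESeq2 and 1 without the filter on low counts. Without the filter it was 2 for KO ifetroban against WT ifetroban and 1 for KO ifetroban against KO vehicle. Of the fits with 1 library left out, only that without KO vehicle replicate 2 called any of the 34 genes. It did so for KO vehicle against WT vehicle, KO ifetroban against KO vehicle and the averaged contrast. That fit leaves 1 KO vehicle library that is assumed to vary like the other groups. In these contrasts it also called a larger share of all genes than the fit with every library.

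Median log2 fold changes with each library left out ranged from 0.017 to 1.28 for KO vehicle against WT vehicle, -0.84 to 0.16 for KO ifetroban against WT ifetroban, 0.067 to 1.21 for WT ifetroban against WT vehicle and -1.56 to -0.37 for the interaction. Without both the library labelled WT vehicle replicate 1 and WT ifetroban replicate 1, an alternative chosen after seeing the data, they were 0.016, 0.15, -0.36 and 0.040 in that order. The cause was not tested.

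In the averaged contrast Kif20a was -0.082 with counts without regard to strand and -0.041 without the library labelled WT vehicle replicate 1 together with KO vehicle replicate 1; leaving out single libraries gave -0.11 to 0.57. Ranges on leaving out single libraries were -0.79 to 0.16 for Ect2, -0.90 to 0.39 for Mki67 and -0.68 to 0.31 for Top2a. With the length term Mki67 was 0.17 and Top2a 0.022.

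Over all tested genes, calls for KO vehicle against WT vehicle, KO ifetroban against WT ifetroban and the averaged contrast numbered 8, 2 and 82. They were 368, 67 and 723 with DESeq2, 1195, 428 and 1684 without the filter, and 1, 1 and 9 with the length term. Without KO vehicle replicate 2 the first was 1734 and the last 2098. For KO ifetroban against KO vehicle 0 genes were called, with 3 in DESeq2, 428 without the filter and 449 without KO vehicle replicate 2.

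The replicate numbers were not taken as pairs, since no label ties a number to an animal or day. Deviations of same-numbered libraries from their group means correlated at 0.00108 to 0.478, not all over 0.1. Between groups of 2 libraries, the numbers 1 and 2 give the same value by construction. The libraries numbered 1 of KO vehicle, WT vehicle and KO ifetroban correlated at 0.181 to 0.478. Each of these libraries also had long transcripts low. With the replicate block, 0 of the 34 genes were called in each contrast, and 45 genes for KO vehicle against WT vehicle and 531 in the averaged contrast over all tested genes; the median of the 34 was 0.49, -0.36, -0.25, 0.59, -0.02 and -0.88 in the 6 contrasts in the order of the report. Low counts, with a median of 35 reads, limit what single genes can show.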
